A study of Mus musculus with 25 samples.

Results

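The transcripts described here belong to 10 genes: the transcription factor NRF2 (gene Nfe2l2), its repressor KEAP1 (Keap1), the ligase scaffold CUL3 (Cul3), the related cap'n'collar factors Nfe2l1, Nfe2l3, Bach1 and Bach2, and the small MAF partners Mafg, Maff and Mafk. They were taken by gene symbol and not by a rule on their values, though with earlier results of these data known. Each was listed in both expression tables. They make up 10 of the 21106 genes listed for pups and 10 of the 19942 listed for adults, and all 10 passed the filter on low values in both tables.

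NRF2 is a basic leucine zipper factor that binds DNA only as a dimer with a small MAF protein, at a sequence called the antioxidant response element (ARE), and there switches on genes for glutathione, detoxification and NADPH supply. In resting cells KEAP1 grips NRF2 through its DLG and ETGE motifs and presents it to the CUL3 ubiquitin ligase, so that NRF2 is destroyed soon after it is made and its level is set largely at the protein. BACH1 and BACH2 compete for the same MAF partners and repress, NRF1 (Nfe2l1) chiefly restores proteasome genes, and the small MAFs lack a domain that activates transcription, so pairs of small MAFs can repress as well. In squamous epithelium of the esophagus, a lining of dividing basal cells under flattened suprabasal layers, mutations of NFE2L2 in the DLG or ETGE motif are found in human carcinomas.

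RNA of whole esophagus was sequenced from mice of 7 groups in 2 experiments. The first used pups 7 to 10 days old with Cre driven by the keratin 5 promoter (K5Cre), with 3 libraries each of wild type, of L30F homozygotes (NRF2L30F/L30F::K5Cre) and of KEAP1-deficient mice (KEAP1flox/flox::K5Cre). The second used adults 6 to 9 weeks old, taken 1 week after tamoxifen (100 µg per g body weight), with the tamoxifen-dependent K5CreERT2, with 4 libraries each of wild type, of heterozygotes (NRF2L30F/+::K5CreERT2), of homozygotes with both alleles mutant (NRF2L30F/L30F::K5CreERT2) and of mice deficient for the repressor (KEAP1flox/flox::K5CreERT2). The L30F knock-in was derived from human cancer and is expressed after Cre recombination. Both drivers act in squamous cells only, so the muscle, stroma and other cells of each sample keep their unrecombined alleles. What an unrecombined L30F allele transcribes is not given in the labels. Whether the wild-type mice carried Cre, and which part of Keap1 is removed, is not given in the labels. Since separate animals per library are not stated, p-values measure only the spread between libraries, which may be technical.

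Pup libraries held 18.8 to 19.7 M reads (M for mega), while in adults depth moved with genotype: 27.5 to 32.3 M in wild type, 12.8 to 16.9 in heterozygotes, 10.9 to 11.6 in homozygotes and 22.5 to 31.3 in KEAP1-deficient libraries. The tissue carried its squamous markers throughout: the mean log2 level of 6 basal markers lay between 11.68 and 12.94 over all 25 libraries. In pups it was higher in every mutant library than in any wild-type library. Wild type lay at 11.68 to 12.20, L30F homozygotes at 12.24 to 12.55 and KEAP1-deficient libraries at 12.38 to 12.65. This mean can hide genes that moved apart. In adults the basal marker Krt14 had a median of 8978 counts in wild type and 117500 in KEAP1-deficient libraries. The mean of the 6 basal markers was 12.52 and 12.31 there. Other cell types moved with the groups as well. In pups the 6 fibroblast markers averaged 13.89 to 14.02 in wild type, 12.80 to 13.04 in L30F homozygotes and 12.06 to 12.88 in KEAP1-deficient libraries, and the 5 suprabasal markers, of which Krt4 went the other way, 11.17 to 11.43, 12.64 to 12.68 and 13.25 to 13.45. In adults the 6 myeloid markers averaged 8.55 to 9.56 in wild type, 9.22 to 10.08 in heterozygotes, 9.91 to 12.23 in homozygotes and 12.55 to 12.97 in KEAP1-deficient libraries, and the 5 suprabasal markers 13.70 to 14.46, 13.03 to 13.90, 12.79 to 13.63 and 11.34 to 12.19. In such samples, fewer cells of a type and less RNA per cell cannot be told apart, and the part of these shifts in the results below was not tested. Library 3 of the L30F homozygous pups stood apart from the other 8 pup libraries in that the Y-linked gene Ddx3y was at 0 there and at 542.1 to 1281 normalised counts in the others. Xist, the transcript of the inactive X chromosome, was at 47280 there and at 20.7 to 77.01 in the others, the pattern of a female library among male ones.

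The changed residue lies in the DLG motif, whose coding region is shown to place the mutation. On the reference, codons 16 to 44 of transcript Nfe2l2-201 lie in exon 2 of 5, at chr2:75679343-75679429 of GRCm38 on the minus strand, with codon 30 at 75679385-75679387. The reference reads as follows, 5′ to 3′, with the leucine codon that becomes phenylalanine (L30F, counted from the start methionine) in capitals. The tables hold gene-level values, so the mutant codon itself was not observed here.
Nfe2l2 codons 16 to 44: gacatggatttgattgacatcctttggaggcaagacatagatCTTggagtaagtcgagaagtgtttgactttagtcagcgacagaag

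The promoters were read because the small MAF transcripts rose beside NRF2 target genes in pups, as given below. The core of the ARE, TGACNNNGC, was searched on both strands from 250 bases before to 50 bases after the RefSeq start sites (GRCm38.p6), in 16 windows of the 10 genes. It occurred in 4 of the 10 genes: Nfe2l2 (240 bases before the start), Mafg (222 before), the first of 3 starts of Maff (112 before) and Mafk (13 before). Over all genes of that table, 3781 of 27025 held the core in such a window, and 12.4% of all 32851 windows did. The window of Nqo1, a gene that NRF2 drives, held 0 cores. The sequence TGANTCA, the palindrome bound by AP-1 factors, was in none of the 16 windows and in 7.81% of all windows. The half-site TGCTGA, which starts the longer MAF recognition element, was in windows of Nfe2l1 (3 of its 5 starts), Bach1 and Mafk, against 19.5% of all windows. Those 3 windows of Nfe2l1 overlap and hold the same matches, so they are not separate cases. A match describes letters only and is no measured binding site. The 250 bases before the start are given for the 4 genes with an ARE core, 5′ to 3′ in the direction of the gene, with the core in capitals: in Nfe2l2 and Maff it reads as written, and in Mafg and Mafk, where the core is on the other strand, as its reverse complement.
Nfe2l2, chr2:75704664-75704913, minus strand: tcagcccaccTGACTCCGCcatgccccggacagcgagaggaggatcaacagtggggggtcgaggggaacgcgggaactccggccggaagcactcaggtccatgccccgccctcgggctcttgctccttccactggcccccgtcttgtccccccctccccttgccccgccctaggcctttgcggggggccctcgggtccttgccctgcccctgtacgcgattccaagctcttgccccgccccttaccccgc
Mafg, chr11:120633548-120633797, minus strand: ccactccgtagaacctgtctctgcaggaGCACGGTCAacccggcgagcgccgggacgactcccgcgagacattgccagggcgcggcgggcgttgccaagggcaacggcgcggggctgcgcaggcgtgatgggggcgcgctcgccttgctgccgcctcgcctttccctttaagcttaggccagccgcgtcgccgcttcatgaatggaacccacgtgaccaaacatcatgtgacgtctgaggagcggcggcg
Maff, chr15:79346371-79346620, plus strand: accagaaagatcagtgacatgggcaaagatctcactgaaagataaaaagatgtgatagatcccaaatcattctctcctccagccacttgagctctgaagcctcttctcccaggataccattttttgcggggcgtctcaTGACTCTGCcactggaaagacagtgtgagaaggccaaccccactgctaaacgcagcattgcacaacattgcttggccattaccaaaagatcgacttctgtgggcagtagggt
Mafk, chr5:139791286-139791535, plus strand: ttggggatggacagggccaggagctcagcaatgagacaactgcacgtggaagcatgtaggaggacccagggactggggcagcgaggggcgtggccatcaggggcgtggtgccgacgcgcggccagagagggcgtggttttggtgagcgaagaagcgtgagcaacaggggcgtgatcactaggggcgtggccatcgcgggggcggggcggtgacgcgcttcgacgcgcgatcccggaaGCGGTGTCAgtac

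In pups most of the 10 transcripts were higher in both mutants, and in adults most were not. Values are normalised read counts, and a change is a log2 fold change of value + 1 with its standard error (SE), called where limma's p, adjusted over all genes of the table, was under 0.05. In L30F homozygous pups 6 of the 10 rose, 1 fell and 3 were not called, while 22% of all tested genes rose and 17.1% fell. In KEAP1-deficient pups 8 rose and 2 fell, against 26.3% and 23.2% of all genes. Adult heterozygotes had 1 higher and 1 lower (4.8% and 4.9% of all genes), adult homozygotes 1 higher and 2 lower (11.8% and 10.4%), and KEAP1-deficient adults 1 higher and 5 lower (24.1% and 22.7%). Keap1, the targeted gene, is counted among the lower ones in both KEAP1-deficient groups. The median log2 fold change of the 10 was 0.52 in homozygous and 0.84 in KEAP1-deficient pups, where that of all genes was -0.03 and -0.05. In adults the median was 0.08 in heterozygotes, -0.06 in homozygotes and -0.27 in KEAP1-deficient libraries, with -0.01 to 0.01 over all genes. The mutants of an experiment share their wild-type libraries, so these comparisons are not independent of each other.

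The choice of scaling matters in pups. With libraries scaled by their total in place of the deposited size factors, the median of all genes moved by -0.21 in homozygous and -0.33 in KEAP1-deficient pups against wild type. The share of calls that were higher went from 56.3% to 33.7% and from 53.1% to 27.2%. Under total scaling the calls of Nfe2l1 (0.15, adjusted p = 0.12) and Cul3 (0.16, adjusted p = 0.054) in KEAP1-deficient pups ended, and the others held. Between the mutant pups the median moved by 0.13 and the share of higher calls went from 42.3% to 87.2%. In adults that share went from 49.5% to 37.5% for heterozygotes against wild type, from 49.3% to 66.8% for homozygotes against heterozygotes and from 48.3% to 35.2% for heterozygotes against KEAP1-deficient libraries, where the median moved by -0.13. With upper quartile scaling it went from 53.1% to 39.7% for homozygotes against wild type.

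**Figure D1:**
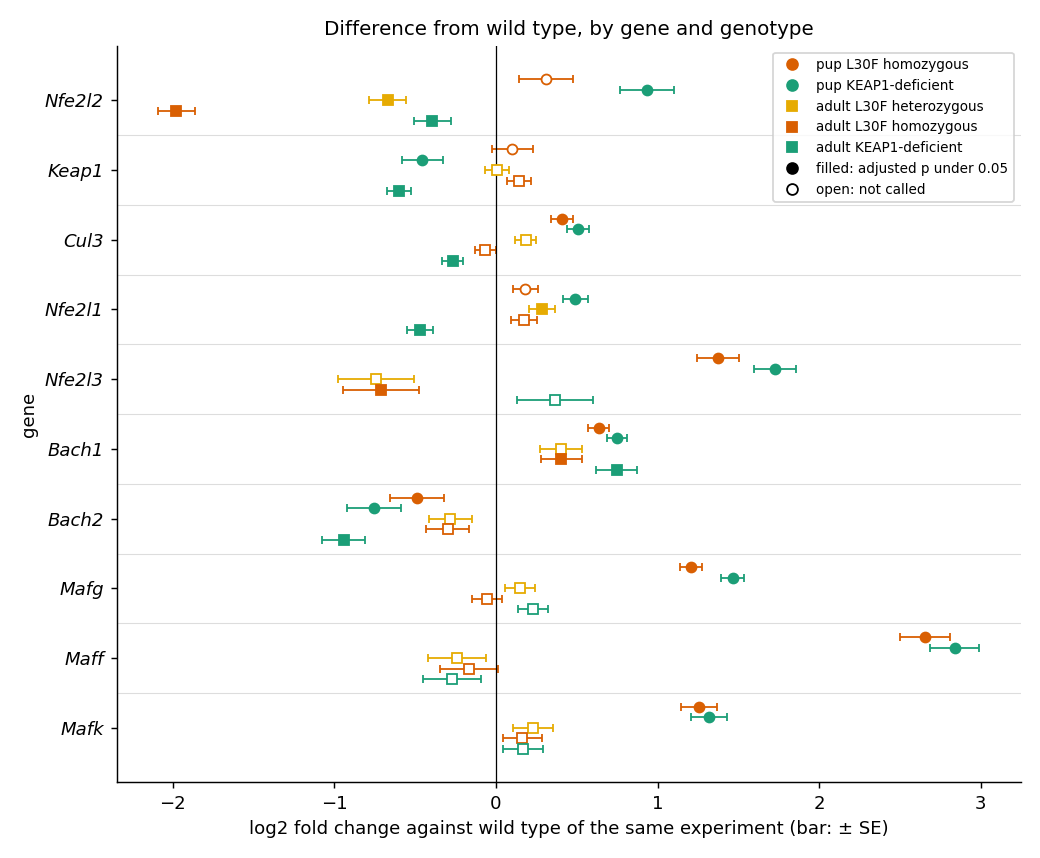
Log2 fold change against wild type of the same experiment (horizontal axis, bars ± SE) for the 10 genes (vertical axis), with circles for pups, squares for adults, filled symbols for adjusted p under 0.05 and open ones for the rest. Maff, Mafg, Mafk and Nfe2l3 lie far to the right in pups only, Nfe2l2 is right of 0 in pups and left in adults, and Bach1 is right of 0 in every comparison.

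Keap1, the targeted gene, fell in KEAP1-deficient mice of both ages, which checks the labels. Cul3, whose product is the scaffold of the ligase, rose in both mutant pups and fell in KEAP1-deficient adults. In pups Keap1 had 1094, 1060.2 and 1053 counts in wild type, 1104, 958 and 1424 in homozygotes and 725, 825 and 789 in KEAP1-deficient libraries, and in adults 1160.3, 1164, 1192 and 1077 in wild type and 732, 812, 721 and 765 in KEAP1-deficient libraries. No KEAP1-deficient library overlapped wild type, yet 72.9% of the wild-type mean remained in pups and 66.0% in adults. The targeted transcript fell by 0.46 log2 units in pups (SE 0.13, adjusted p = 0.012) and by 0.60 log2 units in adults (SE 0.07, adjusted p = 8e-06). Cells outside the squamous lineage keep Keap1, and reads from exons that are not removed still count, so the residue does not measure how complete the deletion was.

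Keap1 was not called in any L30F group against wild type. The adult heterozygotes had 1011, 1169, 1253 and 1197 counts and the homozygotes 1387, 1225, 1172 and 1294. Heterozygous library 1 was under the wild-type range and homozygous library 1 the highest, and both groups overlapped wild type. The differences were 0.01 (SE 0.07, adjusted p = 0.96) and 0.14 (SE 0.07, adjusted p = 0.18), and in homozygous pups 0.10 (SE 0.13, adjusted p = 0.56). The sign in heterozygotes and in homozygous pups turns under total scaling, to -0.04 and -0.11. Homozygous library 3 was the highest of the pup libraries, at 1424, and without it the pup value was -0.06 (adjusted p = 0.67).

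Cul3 had 1504, 1625 and 1628 counts in wild-type pups, 1982, 2198 and 2142 in homozygotes and 2185, 2327 and 2245 in KEAP1-deficient pups. Both mutants were wholly above wild type, by 0.41 (SE 0.07, adjusted p = 0.00085) and 0.51 (SE 0.07, adjusted p = 0.00014). In adults it had 2208, 2306, 2270.3 and 2299 in wild type, 2879, 2287, 2678 and 2513 in heterozygotes, 2278, 2171, 2139.9 and 2085 in homozygotes and 1965, 1834, 1814 and 1935 in KEAP1-deficient libraries. The KEAP1-deficient adults were the lowest, with no overlap with any other group, and fell by 0.27 log2 units (SE 0.07, adjusted p = 0.0031). Heterozygotes were highest on average, with library 1 at 2879, and were not called against wild type at 0.18 (SE 0.07, adjusted p = 0.087); without heterozygous library 2 the value was 0.24 (adjusted p = 0.026). Their excess over the midpoint, 0.22 (SE 0.06, adjusted p = 0.026), was not called without wild-type library 1 (0.21, adjusted p = 0.053), heterozygous library 1 (0.17, adjusted p = 0.077) or heterozygous library 3 (0.20, adjusted p = 0.085).

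**Figure D2:**
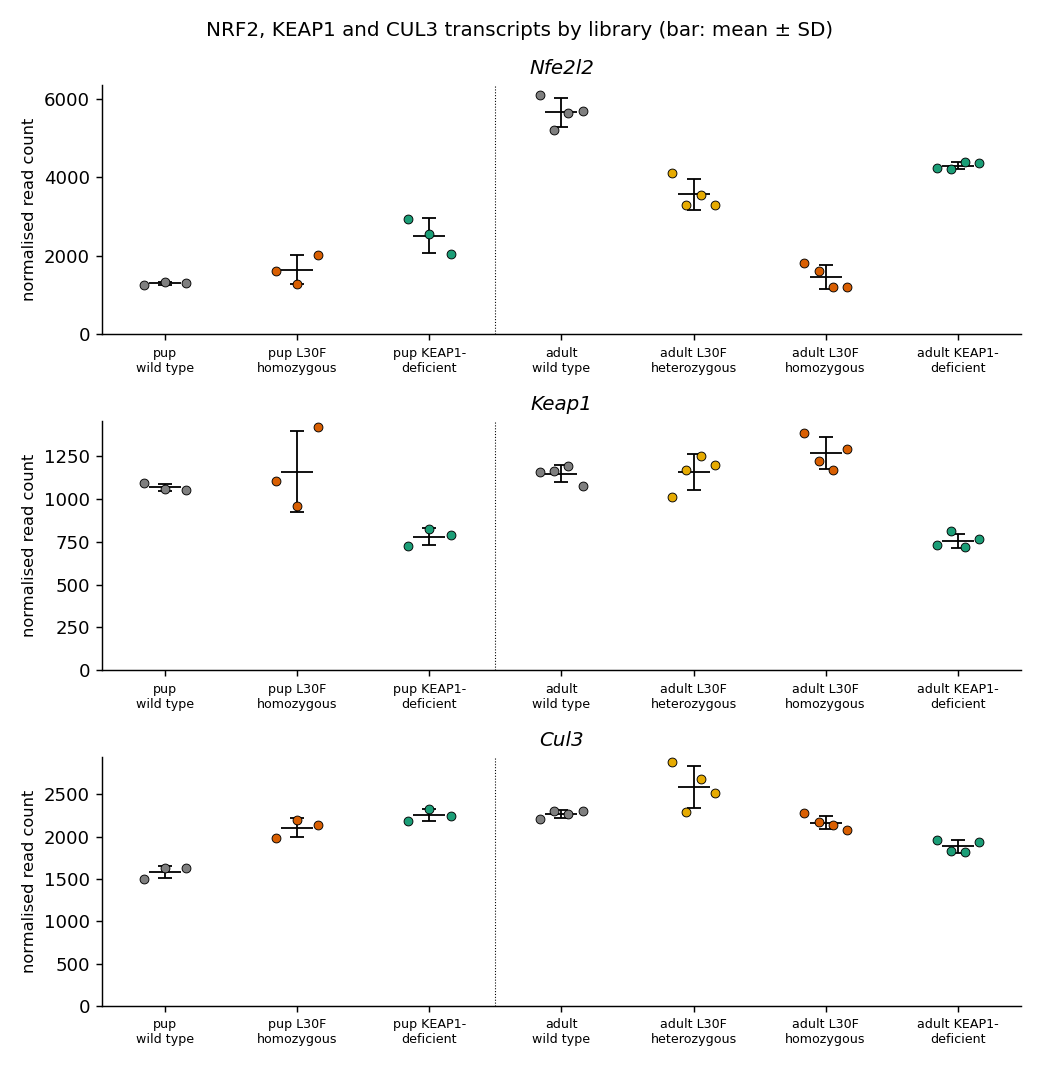
Normalised read counts (vertical axes, from 0) of Nfe2l2, Keap1 and Cul3 in the 7 groups, with a point per library and a bar for mean ± SD (n = 3 in pups, 4 in adults); the dotted line parts the 2 separately normalised experiments. Nfe2l2 steps down from adult wild type to heterozygotes to homozygotes, Keap1 is low in both KEAP1-deficient groups, and Cul3 is above wild type in both mutant pup groups.

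NRF2 itself gave opposite differences at the 2 ages: its transcript was higher in KEAP1-deficient pups and lower in all 3 adult mutants, most of all in L30F homozygotes. In pups Nfe2l2 had 1261, 1338 and 1305 normalised counts in wild type, 1601, 1291 and 2029.8 in L30F homozygotes and 2929, 2557 and 2053 in KEAP1-deficient libraries. All 3 KEAP1-deficient libraries were above every wild-type library, whereas the homozygotes spread from the wild-type range to just under the lowest KEAP1-deficient value. The change was 0.93 (SE 0.17, adjusted p = 0.0013) in KEAP1-deficient pups. In homozygous pups it was 0.31 (SE 0.17, adjusted p = 0.17) and did not pass. The highest of these homozygous libraries was library 3, which had no Ddx3y; without it the value was 0.14 (adjusted p = 0.48), and without library 2 it was 0.47 (adjusted p = 0.041).

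In adults Nfe2l2 had 6110.4, 5203, 5638 and 5695 counts in wild type and 4117, 3307, 3542 and 3293 in heterozygotes. The homozygotes had 1806, 1618, 1204 and 1199, and the KEAP1-deficient libraries 4231, 4209, 4403 and 4364. The wild-type libraries were the highest, the homozygotes the lowest, and no homozygous library overlapped any other group. Nfe2l2 fell by 0.67 log2 units in heterozygotes (SE 0.12, adjusted p = 0.0028), by 1.98 in homozygotes (SE 0.12, adjusted p = 1.2e-08) and by 0.39 where KEAP1 was deficient (SE 0.12, adjusted p = 0.011). The mean was 63.0% of wild type with 1 mutant allele, 25.7% with both, and 76.0% in KEAP1 deficiency. With reads thinned to equal depth the falls were 0.67, 1.98 and 0.37 in the same order. Homozygotes were below heterozygotes by 1.31 log2 units (SE 0.12, adjusted p = 1.1e-05) and below KEAP1-deficient libraries by 1.58 (SE 0.12, adjusted p = 3.1e-07). Heterozygotes against KEAP1-deficient libraries did not pass at -0.28 (SE 0.12, adjusted p = 0.063), although no libraries of these groups overlapped. It passed under total scaling (-0.41, adjusted p = 0.0079) and without heterozygous library 1 (-0.35, adjusted p = 0.026) or homozygous library 1, 3 or 4 (-0.28, adjusted p = 0.03, 0.046 and 0.045).

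The loss of Nfe2l2 transcript per mutant allele was near equal on the scale of counts. Recombined alleles of squamous cells and unrecombined alleles of other cells cannot be told apart in these gene-level values. The heterozygote mean of 3565 lay 5.47 counts from the midpoint of wild type and homozygotes, 3559 (SE of the difference 227). On the log2 scale, heterozygotes were 0.32 above the midpoint (SE 0.10, adjusted p = 0.059), which did not pass with all libraries and passed without homozygous library 1 (0.37, adjusted p = 0.02) or 2 (0.35, adjusted p = 0.047), and with a replicate block (0.32, adjusted p = 0.046). Of the 10 genes, 1 passed this test, Cul3, against 5.03% of all genes above and 3.95% below their midpoint. Under total scaling the share of such calls above the midpoint went from 56% to 37.3%, and Cul3 no longer passed.

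The lower Nfe2l2 transcript in adults stood beside higher levels of genes that NRF2 drives. Nqo1, a quinone reductase and standard readout of NRF2 activity, had 1088 ± 111 counts (mean ± SD, n = 4) in wild type, 4202 ± 406 in heterozygotes, 6304 ± 1428 in homozygotes and 5950.4 ± 359 in KEAP1-deficient adults. Slc7a11, the cystine importer, had 1209.9 ± 163, 17190.1 ± 1905, 31936 ± 4288 and 46396 ± 5474 in the same order. Homozygotes, with the lowest Nfe2l2, were above heterozygotes in Nqo1 by 0.56 (SE 0.13, adjusted p = 0.0078) and in Slc7a11 by 0.89 (SE 0.12, adjusted p = 0.00024). In pups Nqo1 rose from 76.7 ± 4.42 (n = 3) to 9989 ± 445 in homozygotes and 12119 ± 1050.2 in KEAP1-deficient libraries. The 2 tables were normalised separately, so levels are not compared between ages.

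**Figure D3:**
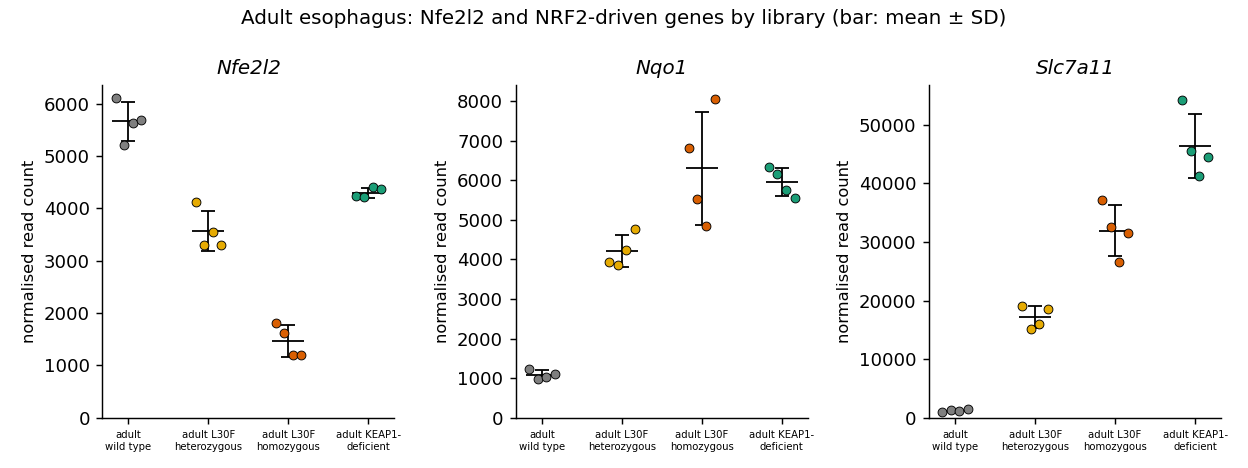
Normalised read counts (vertical axes, from 0) of Nfe2l2, Nqo1 and Slc7a11 in the 4 adult groups, with a point per library and a bar for mean ± SD (n = 4). Nfe2l2 is lowest in L30F homozygotes, at 1199 to 1806, while Nqo1 and Slc7a11 are above wild type in every mutant library.

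Among the cap'n'collar relatives, Nfe2l3 rose in both mutant pups and fell in adult L30F homozygotes, while Nfe2l1 rose in KEAP1-deficient pups and fell in KEAP1-deficient adults. Nfe2l3 encodes NRF3, a membrane-bound relative of NRF1. It had 221, 194 and 248 counts in wild-type pups, 541, 623 and 553 in homozygotes and 635, 860.0 and 712 in KEAP1-deficient pups. The 3 pup groups did not overlap. The changes were 1.37 (SE 0.13, adjusted p = 2.1e-05) and 1.73 (SE 0.13, adjusted p = 2.6e-06), or 2.59-fold and 3.31-fold. In adults Nfe2l3 had 533, 398, 464 and 265 in wild type, 219, 160.5, 277 and 338 in heterozygotes, 239.8, 262, 257 and 223 in homozygotes and 619, 413, 421 and 669.5 in KEAP1-deficient libraries. The homozygotes lay under all wild-type libraries, though only just under library 4 (265 against 262 in the highest homozygote). The homozygous fall of 0.71 log2 units (SE 0.24, adjusted p = 0.041) was called in 9 of 16 fits that left out a library. It was lost without wild-type library 1, 2 or 3 or any homozygous library, and was -0.58 (adjusted p = 0.13) without wild-type library 1. Heterozygotes, at -0.74 (SE 0.24, adjusted p = 0.059), overlapped wild type and did not pass; they passed under total scaling (-0.79, adjusted p = 0.04) and without wild-type library 4 (-0.94, adjusted p = 0.014) or heterozygous library 4 (-0.91, adjusted p = 0.027). Both L30F groups were below KEAP1-deficient adults, by 1.11 log2 units in heterozygotes (SE 0.24, adjusted p = 0.0012) and 1.08 in homozygotes (SE 0.24, adjusted p = 0.0034).

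Nfe2l1 encodes NRF1, which is made in the endoplasmic reticulum membrane and released to restore proteasome genes. In pups it had 4311, 4809.9 and 4645 counts in wild type, 5221, 4789 and 5634 in homozygotes and 6098, 6547 and 6687 in KEAP1-deficient libraries. KEAP1-deficient pups were wholly above wild type at 0.49 (SE 0.08, adjusted p = 0.00049), and homozygotes overlapped wild type at 0.18 (SE 0.08, adjusted p = 0.089), which was -0.03 under total scaling and 0.24 (adjusted p = 0.048) without homozygous library 2. In adults the wild-type libraries had 8418, 9704, 9724 and 8697, heterozygotes 10576, 11029, 11729 and 11145, homozygotes 10021, 11244, 9107 and 10866 and KEAP1-deficient libraries 7095, 6706, 5835 and 6699. Every KEAP1-deficient library was below every library of the other groups. Nfe2l1 fell there by 0.47 log2 units (SE 0.08, adjusted p = 0.00016). The 8 striated muscle markers, genes of the outer wall of the mouse esophagus, averaged 12.29 to 12.87 in these libraries and 13.79 to 14.17 in wild type, and their part in this result was not tested. Heterozygotes rose by 0.29 (SE 0.08, adjusted p = 0.036), with all 4 libraries above wild type. That call held in 10 of 16 fits without a library and was lost without wild-type library 1, 3 or 4 or heterozygous library 2, 3 or 4; without wild-type library 1 the value was 0.25 (adjusted p = 0.13). In the heterozygotes the striated muscle markers averaged 14.51 to 14.92, and the part of that was not tested either.

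BACH1, the heme-sensing repressor that competes with NRF2 at AREs, rose in 4 of the 5 mutant groups, and the related BACH2, best known in B and T lymphocytes, fell in 3. Bach1 had 1041, 1117 and 1066 counts in wild-type pups, 1724, 1631 and 1651 in homozygotes and 1883, 1747 and 1787 in KEAP1-deficient pups. The groups were tight and did not overlap, and Bach1 rose by 0.63 (SE 0.06, adjusted p = 2.9e-05) and 0.75 (SE 0.06, adjusted p = 5.8e-06). In adults it had 1062, 1254, 1301 and 1146 in wild type, 2165, 1384, 1390.3 and 1449 in heterozygotes, 1792, 1555, 1446 and 1515 in homozygotes and 1716, 2195, 2009 and 2083 in KEAP1-deficient libraries. Every mutant library lay above every wild-type library. The rise was 0.75 (SE 0.13, adjusted p = 0.00018) in KEAP1-deficient adults and 0.40 (SE 0.13, adjusted p = 0.034) in homozygotes, and heterozygotes, at 0.40 (SE 0.13, adjusted p = 0.061), did not pass. The homozygous call held in 11 of 16 fits without a library. It was lost without wild-type library 1, 2 or 4 or homozygous library 1 or 2, and was 0.35 (adjusted p = 0.1) without wild-type library 1. Heterozygous library 1 was at 2165, far above the other 3, which lay between 1384 and 1449.

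Bach2 had 1039.8, 757 and 761 counts in wild-type pups, 651, 668 and 499.8 in homozygotes and 453, 458 and 597 in KEAP1-deficient pups. Both mutants were wholly below wild type, whose library 1 was the highest. Bach2 fell by 0.76 log2 units in KEAP1-deficient pups (SE 0.17, adjusted p = 0.004) and by 0.49 in homozygotes (SE 0.17, adjusted p = 0.042). The homozygous call held in 2 of 9 fits without a library, those without homozygous library 2 or KEAP1-deficient library 3. Without wild-type library 1 the value was -0.34 (adjusted p = 0.14). In adults Bach2 had 337, 445, 425 and 402 in wild type, 262, 338, 343 and 384 in heterozygotes, 297, 361, 292 and 356 in homozygotes and 177, 251, 207 and 202 in KEAP1-deficient libraries. KEAP1-deficient libraries lay below all others, and Bach2 fell there by 0.94 log2 units (SE 0.13, adjusted p = 2.8e-05). The L30F groups overlapped wild type, at -0.28 (adjusted p = 0.19) in heterozygotes and -0.30 (adjusted p = 0.12) in homozygotes. In the same KEAP1-deficient adults the suprabasal and striated muscle markers were lower, as given above. Of the 5 T cell markers, 4 were listed and averaged 6.02 to 6.72 there against 1.49 to 3.01 in wild type, and the 5 B cell markers 2.10 to 3.78 against 1.52 to 2.85. The part of these cell types in the fall of Bach2 was not tested. In pups the fibroblast markers were lower in both mutants, as given above, and their part was not tested either. Bach2 contains the annotated antisense gene Bach2os and Keap1 overlaps the antisense gene Gm16754; the libraries were directional, but how strand was used in counting is not given in the sources used here.

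**Figure D4:**
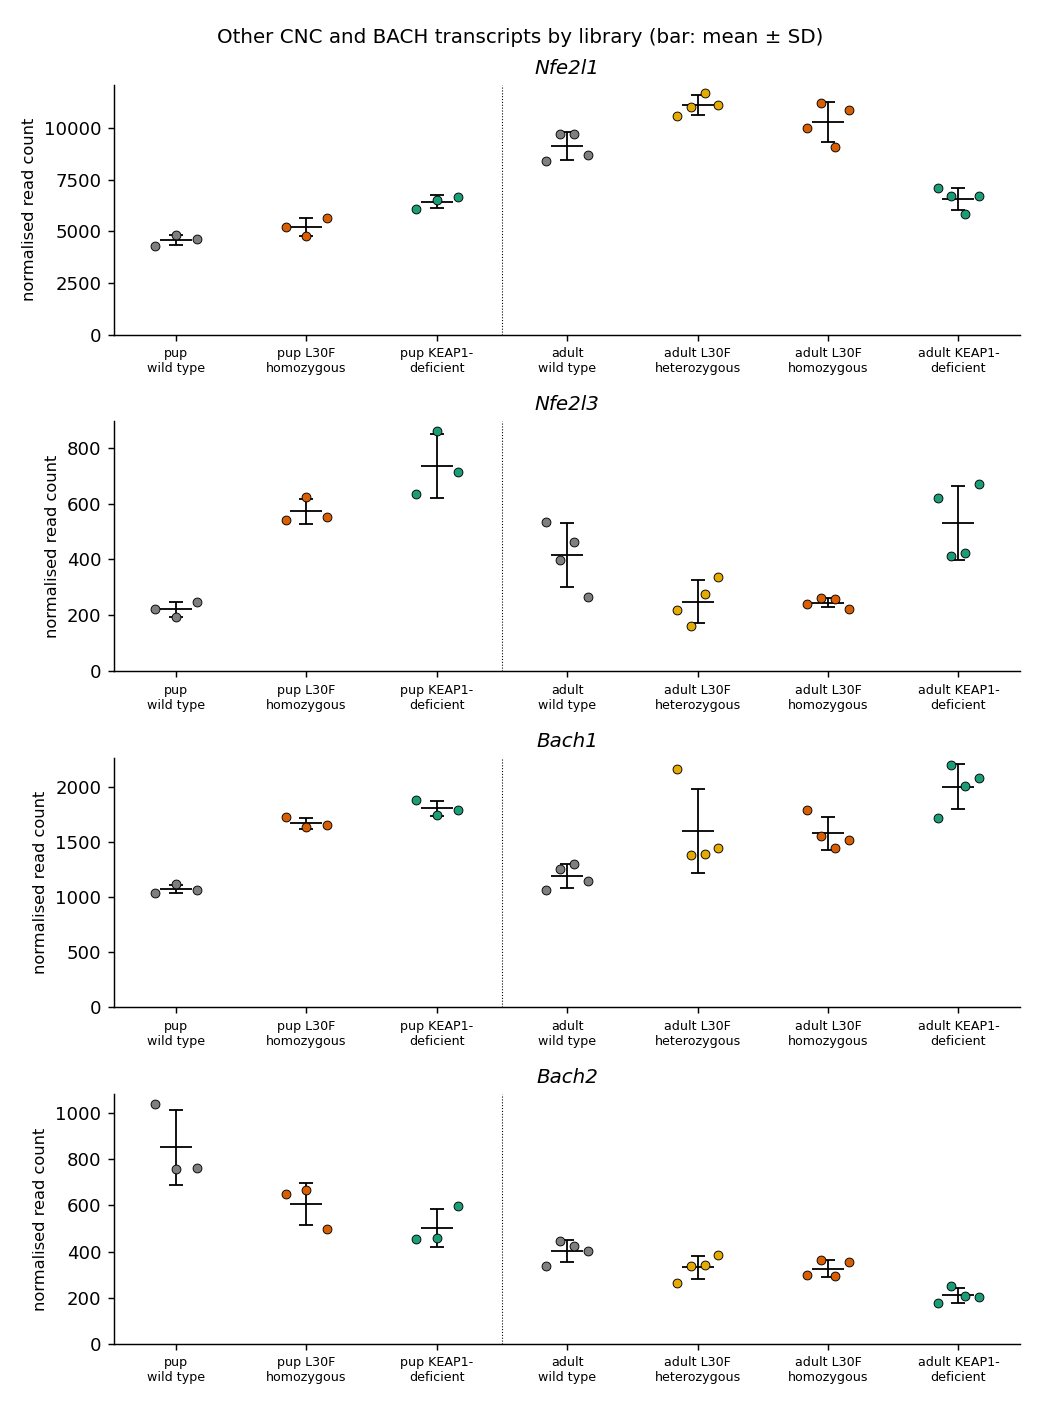
Normalised read counts (vertical axes, from 0) of Nfe2l1, Nfe2l3, Bach1 and Bach2 in the 7 groups, with a point per library and a bar for mean ± SD (n = 3 in pups, 4 in adults); the dotted line parts the experiments. Bach1 is above wild type in all 5 mutant groups, Bach2 is lowest in the KEAP1-deficient group of each age, and Nfe2l3 in pups is lowest in wild type and highest in KEAP1 deficiency.

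The small MAF genes, whose products are the obligate partners of NRF2, rose in both mutant pups, with Maff showing the largest fold change of the 10, and had no call against wild type in adults. Maff had 144, 120.1 and 94.1 counts in wild-type pups, 736, 758 and 748 in homozygotes and 726, 975 and 861 in KEAP1-deficient pups. Both mutants stood far above wild type and overlapped each other. Maff rose by 2.66 (SE 0.15, adjusted p = 5.2e-07) in homozygotes and by 2.84 (SE 0.15, adjusted p = 2.2e-07) in KEAP1-deficient pups, or 6.30-fold and 7.15-fold. Mafg had 1145, 1306 and 1191 in wild type, 2871, 2804 and 2727 in homozygotes and 3484, 3412 and 3153 in KEAP1-deficient pups, with no overlap between the 3 groups. It rose 2.31-fold in homozygotes, 1.21 (SE 0.07, adjusted p = 5.5e-07), and 2.76-fold in KEAP1-deficient pups, 1.46 (SE 0.07, adjusted p = 9.1e-08). Mafk had 368, 313 and 321 in wild type, 848, 785 and 762 in homozygotes and 716, 949 and 851 in KEAP1-deficient pups, with both mutants above wild type and overlapping each other, and rose by 1.26 (SE 0.11, adjusted p = 1.3e-05) and 1.32 (SE 0.11, adjusted p = 6.2e-06). These 6 calls held in every alternative and in every fit that left out a library. The suprabasal markers were also higher on average in both mutant pups, but not one by one. Krt13, Krtdap and Sbsn lay above wild type in every mutant library, and the keratin Krt4 lay below, with medians of 57868.9 counts in wild type, 11327 in homozygotes and 19989 in KEAP1-deficient pups. Ivl overlapped wild type in homozygotes. The mean of the basal markers was higher in both mutant pups too, as given above, which need not hold for each gene. In pups the 6 myeloid markers averaged 7.68 to 8.07 in wild type, 9.00 to 9.50 in homozygotes and 9.29 to 9.37 in KEAP1-deficient libraries. The 3 general leukocyte markers did not follow: they overlapped between these groups, at 7.58 to 7.97, 7.60 to 8.17 and 7.25 to 8.21 in the same order. The part of these shifts in the small MAF rises was not tested.

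In adults the small MAFs overlapped wild type in every mutant. Maff had 561, 481, 569 and 395 counts in wild type, 621, 327, 381 and 399 in heterozygotes, 446, 483, 339 and 525 in homozygotes and 372, 404, 404 and 465 in KEAP1-deficient libraries. Its differences from wild type were -0.24 (SE 0.18, adjusted p = 0.43), -0.16 (SE 0.18, adjusted p = 0.55) and -0.27 (SE 0.18, adjusted p = 0.23). None passed, although Nqo1 was called in the same 3 comparisons. Mafg had 1887, 1944, 2191 and 1854 in wild type, 2210.2, 2174, 2130.2 and 2209.6 in heterozygotes, 2146, 2111, 1736 and 1616 in homozygotes and 2636, 2179.8, 2270 and 2160 in KEAP1-deficient libraries. Its difference in KEAP1-deficient adults, 0.23 (SE 0.09, adjusted p = 0.052), lay just above the threshold, and it passed under total scaling (0.31, adjusted p = 0.015), with thinned reads (0.23, adjusted p = 0.044), without wild-type library 3 (0.28, adjusted p = 0.029) and without homozygous library 1, 2 or 4 (0.23, adjusted p = 0.043, 0.047 and 0.032). In heterozygotes it was 0.15 (SE 0.09, adjusted p = 0.33) and in homozygotes -0.06 (SE 0.09, adjusted p = 0.7). Mafk had 465, 501, 642 and 530.3 in wild type, 808, 517, 592 and 605 in heterozygotes, 538, 633, 595 and 617 in homozygotes and 648, 589, 590.2 and 560.4 in KEAP1-deficient libraries, and its differences were 0.23, 0.16 and 0.17 (SE 0.12 each, adjusted p = 0.25, 0.36 and 0.28). Heterozygous library 1 was the highest of its group in Maff, Mafk, Bach1, Cul3 and Nfe2l2, and by a hair in Mafg (2210.2 against 2209.6).

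**Figure D5:**
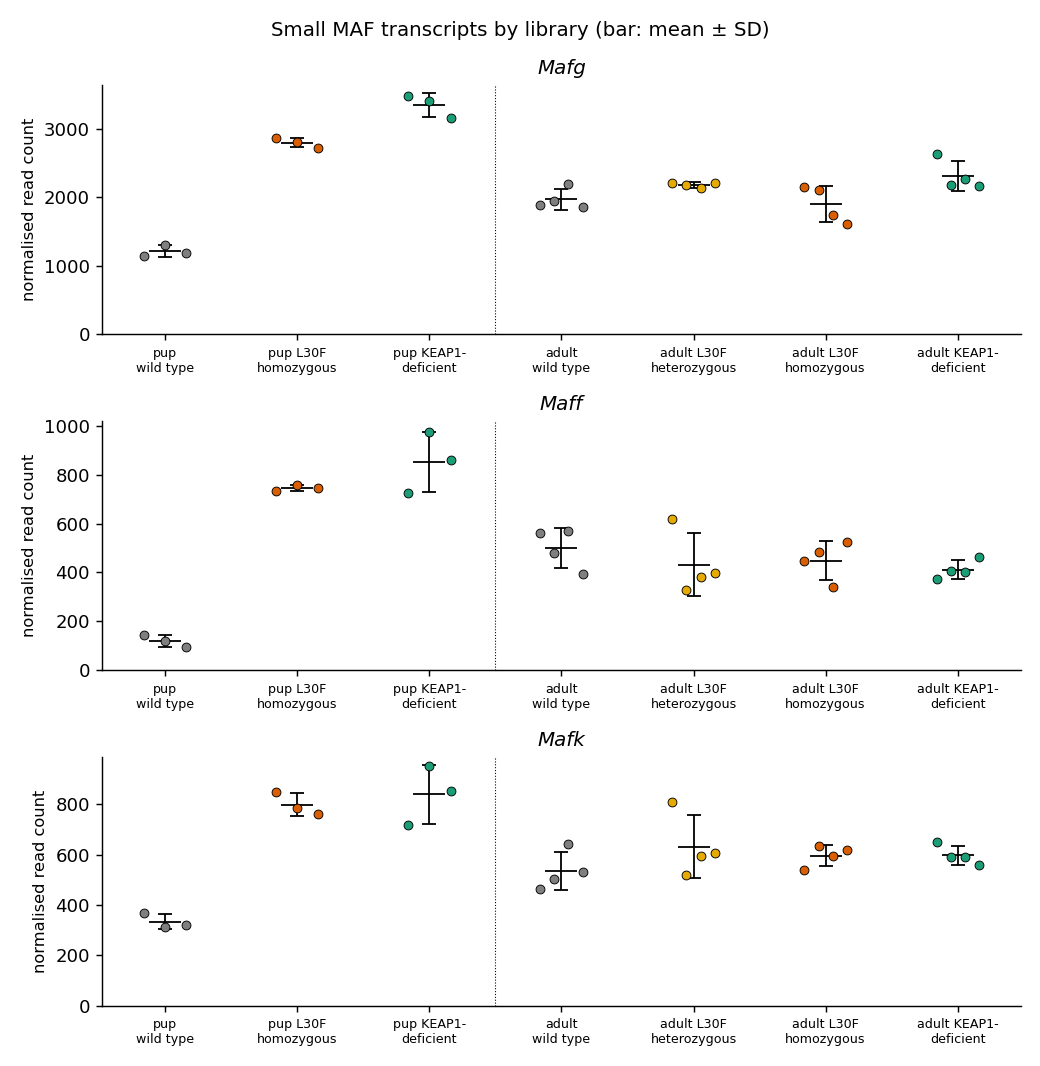
Normalised read counts (vertical axes, from 0) of Mafg, Maff and Mafk in the 7 groups, with a point per library and a bar for mean ± SD (n = 3 in pups, 4 in adults); the dotted line parts the experiments. All mutant pup libraries lie above wild type, from 726 upward for Maff where wild type reaches 144, and the adult groups overlap.

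Set against each other, homozygotes and KEAP1-deficient mice differed in 1 of the 10 genes in pups and in 7 in adults. Both counts include Keap1, the gene targeted in the KEAP1-deficient mice, whose difference was set by the design. Between L30F homozygous and KEAP1-deficient pups, Keap1 was higher in homozygotes at 0.56 (SE 0.13, adjusted p = 0.042) and the other 9 were not called, while 1.76% of all genes were higher and 2.4% lower. That call was lost in 8 of 9 fits that left out a library, at 0.60 (adjusted p = 0.1) without KEAP1-deficient library 2. The exception left out homozygous library 3: Keap1 was then called at 0.40 (adjusted p = 0.046), and Nfe2l2 (-0.79, adjusted p = 0.027) and Nfe2l1 (-0.36, adjusted p = 0.041) were called as well. With all libraries those were -0.62 (SE 0.17, adjusted p = 0.066) and -0.31 (SE 0.08, adjusted p = 0.055), and Mafg was -0.26 (SE 0.07, adjusted p = 0.068). Maff and Mafk differed by -0.18 (SE 0.15) and -0.06 (SE 0.11), and the sign of Mafk turned under total scaling, to 0.07.

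In adults, homozygotes and KEAP1-deficient libraries differed in 7 of the 10 genes: Keap1, Nfe2l1, Bach2 and Cul3 were higher in homozygotes and Nfe2l2, Nfe2l3 and Mafg lower, while 12.9% of all genes were higher and 13.5% lower. Besides Nfe2l2 and Nfe2l3, given above, the differences were 0.74 (SE 0.07, adjusted p = 4.7e-06) for Keap1, 0.65 (SE 0.08, adjusted p = 3.2e-05) for Nfe2l1 and 0.64 (SE 0.13, adjusted p = 0.0023) for Bach2. Cul3, at 0.20 (SE 0.07, adjusted p = 0.033), was not called under total scaling (0.15, adjusted p = 0.084) or without homozygous library 1 or 2 or KEAP1-deficient library 2, 3 or 4 (0.18, adjusted p = 0.086, without homozygous library 1). Mafg, at -0.29 (SE 0.09, adjusted p = 0.031), was not called without homozygous library 3 or 4 or KEAP1-deficient library 1 or 3 (-0.21, adjusted p = 0.1, without homozygous library 4). Bach1 did not pass at -0.34 (SE 0.13, adjusted p = 0.062), and passed under total scaling (-0.39, adjusted p = 0.029) and without heterozygous library 1 (-0.34, adjusted p = 0.0088), homozygous library 1 (-0.40, adjusted p = 0.043) or KEAP1-deficient library 1 (-0.41, adjusted p = 0.04). Heterozygotes against KEAP1-deficient libraries gave 4 higher (Keap1, Nfe2l1, Bach2 and Cul3) and 2 lower (Nfe2l3 and Bach1), against 21.6% and 23.2% of all genes. Their Cul3 was above by 0.45 (SE 0.07, adjusted p = 3.7e-05) and their Bach1 below by 0.35 log2 units (SE 0.13, adjusted p = 0.038), the latter called in 10 of 16 fits without a library and lost without library 2, 3 or 4 of either group (-0.29, adjusted p = 0.11, without heterozygous library 2). Between homozygotes and heterozygotes 2 were lower, Nfe2l2 and Cul3, and none higher, against 8.29% and 8.07% of all genes. Cul3 fell by 0.25 there (SE 0.07, adjusted p = 0.017), and under total scaling by 0.17 (adjusted p = 0.064). Bach1 hardly differed between the allele doses, at 0.00 (SE 0.13).

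Ratios of 2 transcripts within a library hardly depend on how the library was scaled. The log2 ratio of Nfe2l2 to Bach1, the activator against its competitor, was 2.25 ± 0.21 (SD, n = 4) in wild-type adults, 1.18 ± 0.18 in heterozygotes, -0.13 ± 0.20 in homozygotes and 1.11 ± 0.15 in KEAP1-deficient libraries. Homozygotes were 2.38 below wild type, and heterozygotes 0.07 above KEAP1-deficient libraries. In pups it was 0.28 ± 0.02 (n = 3) in wild type, -0.05 ± 0.32 in homozygotes and 0.46 ± 0.23 in KEAP1-deficient libraries. The ratio of Mafg to Nfe2l2 went from -1.52 ± 0.16 in wild-type adults to -0.70 ± 0.15, 0.40 ± 0.12 and -0.90 ± 0.15 in heterozygotes, homozygotes and KEAP1-deficient libraries. That of Keap1 to Cul3 went from -0.98 ± 0.08 to -1.16 ± 0.24, -0.77 ± 0.09 and -1.32 ± 0.10. In the exact two-sided permutation test over libraries, the smallest p that 4 against 4 allows is 0.029 and 3 against 3 allows 0.1. Over 27 comparisons the smallest adjusted p was 0.055, so none passed. Pup comparisons could not pass whatever the difference. Adult comparisons were all at the smallest p of 0.029, except heterozygotes against KEAP1-deficient libraries and, for Keap1 to Cul3, heterozygotes against wild type. With groups this small, not passing does not show that the ratios were alike.

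The effects of a genotype differed between the ages for most of these genes. The difference of the 2 log2 fold changes, adult minus pup, was below 0 and called in 6 of 10 genes for L30F homozygosity and in 7 for KEAP1 deficiency, and above 0 in none. Of all genes, 19.9% were called lower and 13.6% higher for L30F, and 26.5% and 20.6% for KEAP1 deficiency. Maff differed most, by -2.82 (SE 0.24, adjusted p = 4.7e-10) for L30F and -3.11 (SE 0.24, adjusted p = 3.8e-11) for KEAP1. Nfe2l2 differed by -2.29 (SE 0.20, adjusted p = 4.7e-08) and -1.33 (SE 0.20, adjusted p = 2.4e-05). Nfe2l3, Mafg, Mafk and Cul3 were called in both as well, and Nfe2l1 in KEAP1 deficiency only, at -0.96 (SE 0.11, adjusted p = 8.9e-08) against -0.01 (SE 0.11, adjusted p = 0.96) for L30F; these 2 were not tested against each other. Bach1 and Bach2 were not called, at -0.23 and 0.19 for L30F and -0.00 and -0.19 for KEAP1 (SE 0.14 for Bach1, 0.21 for Bach2). Under total scaling the L30F value of Bach1 became 0.01 and the KEAP1 value of Bach2 0.24. The Bach1 value for KEAP1 turned to 0.42 (adjusted p = 0.014) under total scaling, where the median of all genes moved by 0.42 and the share of higher calls went from 43.7% to 72.6%. For L30F that median moved by 0.24 and the share from 40.5% to 65.5%, and there all 6 called genes stayed called. Age, Cre driver, tamoxifen and time since recombination differ together between the experiments and cannot be told apart.

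Other genes of the pathway were read as lists, of which the genes with the smallest adjusted p are named, each called where it is said to rise or fall (log2 fold change with SE). Of all genes, 22% were called higher and 17.1% lower in homozygous pups and 26.3% and 23.2% in KEAP1-deficient pups. In adults it was 4.8% and 4.9% in heterozygotes, 11.8% and 10.4% in homozygotes and 24.1% and 22.7% in KEAP1 deficiency, and each list's counts are to be read against these shares. Counts near them, such as 3 of 12 higher in the first list in homozygous pups and 2 of 12 higher and 3 lower in KEAP1-deficient adults, are no result about a list. The ligase and turnover list (RBX1, NEDD8 machinery, the SCF and GSK3 route, DCAF11 and SYVN1; 12 genes) had 3 higher and 1 lower in homozygous pups and 8 higher and 1 lower in KEAP1-deficient pups. There Skp1, an adaptor of SCF ligases, was 0.42 (SE 0.06) and Syvn1, an endoplasmic reticulum ligase that can degrade NRF2, 0.71 (SE 0.10). In adults it had 0 of 12 called in heterozygotes, 1 higher in homozygotes, Ube2m at 0.40 (SE 0.10), and 2 higher and 3 lower in KEAP1 deficiency. Of 8 proteins that bind KEAP1 or NRF2, 4 rose and 1 fell in homozygous pups and 5 rose and 1 fell in KEAP1-deficient pups, against the shares just given. Sqstm1, the autophagy receptor p62 that ties up KEAP1, rose by 0.85 (SE 0.06) and 1.10 (SE 0.06). Cdkn1a, which encodes p21, rose by 0.85 (SE 0.09) and 1.07 (SE 0.09) in pups, and in adults its log2 fold change was -0.70 (SE 0.13) in homozygotes and -0.95 (SE 0.13) in KEAP1 deficiency, both called. Among 8 genes of NRF1 processing, Vcp, which extracts NRF1 from the membrane, and Psmd14, a proteasome subunit, rose in both mutant pups, adult homozygotes and KEAP1-deficient adults. Vcp rose by 0.70 (SE 0.06), 1.00 (SE 0.06), 0.30 (SE 0.06) and 0.38 (SE 0.06) in that order. List counts there were 3 higher and 1 lower, 5 and 0, 3 and 2, and 4 and 3, with 0 of 8 called in heterozygotes.

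Of 11 coactivators and corepressors, 4 were higher and 3 lower in homozygous pups and 6 and 4 in KEAP1-deficient pups. Rxra, a nuclear receptor that can repress NRF2, rose by 0.89 (SE 0.08) and 1.16 (SE 0.08). In adults the counts were 0 and 2 in heterozygotes, 0 and 1 in homozygotes and 2 and 2 in KEAP1 deficiency, below the share over all genes in the last, with the coactivator Ncoa3 lower in all 3, at -0.31 (SE 0.09), -0.42 (SE 0.09) and -0.63 (SE 0.09). Nfe2, the blood-cell founder of the family, rose by 2.14 (SE 0.49) in KEAP1-deficient adults, where the myeloid markers were higher too, and their part in it was not tested. Of 11 AP-1 and ATF genes, whose products share the zipper fold, 7 rose and 0 fell in homozygous pups (22% and 17.1% of all genes) and 6 rose and 1 fell in KEAP1-deficient pups (26.3% and 23.2%). Fosl1, an AP-1 subunit, had 3.76 ± 2.70 counts (mean ± SD, n = 3) in wild-type pups, 283 ± 23.1 in homozygotes and 467 ± 58.3 in KEAP1-deficient pups. In adults 0 rose and 3 fell in heterozygotes, 0 and 2 in homozygotes, and 5 and 1 in KEAP1 deficiency (24.1% and 22.7% of all genes), with Junb at 1.00 (SE 0.16).

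A list of NRF2 indicator genes and a list of BACH1 and heme response genes were read last. All 10 NRF2 indicator genes rose in both mutant pups, and 6, 9 and 9 of 10 rose in adult heterozygotes, homozygotes and KEAP1-deficient mice. This list was chosen with earlier results of these data known, so its direction is not independent evidence. Of the 8 genes listed for the BACH1 and heme response, 8 rose in homozygous and 7 in KEAP1-deficient pups, and 2, 4 and 4 in the adult groups. Of all genes 22%, 26.3%, 4.8%, 11.8% and 24.1% rose in these groups. Hmox1, heme oxygenase and the best-known BACH1 target, had 191, 201 and 231 counts in wild-type pups against 4389, 4119 and 4805 in homozygotes and 5719.6, 6180.3 and 5589 in KEAP1-deficient pups. In adults it ranged from 1137 to 2288 in wild type and was not called in any mutant: 0.24 (SE 0.25, adjusted p = 0.6) in heterozygotes, 0.55 (SE 0.25, adjusted p = 0.13) in homozygotes and 0.26 (SE 0.25, adjusted p = 0.43) in KEAP1 deficiency. Adult Blvrb, which acts on heme products, was called in all 3 adult mutants, at 1.66 (SE 0.14), 2.23 (SE 0.14) and 2.26 (SE 0.14).

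Genes with patterns most like the members' were sought by Pearson r over the 16 adult libraries among 14660 genes, and r over the 9 pup libraries stands beside it. These are descriptions, and the libraries share genotype, depth and cell makeup. Nfe2l2 was nearest to Gm45041 (r 0.92, pups -0.46), Gm16046 (0.90, pups -0.23) and Zdhhc13, a palmitoyltransferase (0.88, pups 0.72). Gm45041 lies inside Zdhhc13 on the same strand, so their reads may not be separate. Adult Zdhhc13 averaged 1083 counts in wild type, 707 in heterozygotes, 474 in homozygotes and 858 in KEAP1-deficient libraries. Keap1 was nearest to Mpst, a sulfurtransferase (0.95, pups -0.53), Dsc1, a desmosomal cadherin of upper layers (0.95, pups -0.37), and Serpinb12, a serpin (0.95, pups -0.34), all with negative r in pups. For the others the nearest were Ndufs1 for Nfe2l1 (0.97, pups 0.91), Rbm47 for Nfe2l3 (0.95, pups 0.85), Sh2d5 for Bach1 (0.95, pups 0.97), Chst3 for Bach2 (0.95, pups 0.75), Smim13 for Mafg (0.86, pups 0.79), Serpinb5 for Maff (0.85, pups 0.98), Ankrd28 for Mafk (0.80, pups -0.76) and Vps13a for Cul3 (0.95, pups 0.72). Sh2d5 averaged 11.7 counts in wild-type adults, 206.9 in heterozygotes, 113.4 in homozygotes and 640.7 in KEAP1-deficient libraries.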

How the data were processed

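Whole-esophagus RNA of 25 libraries was sequenced with a directional kit, and reads were quantified with Salmon on GRCm39, per the submitters' processing notes. For the versions of that software and its strand setting, nothing is stated in the sources at hand. The 2 tables deposited by the authors, one per experiment, hold log2 values of normalised counts plus an offset of 4, as the values show: the lowest is 2, and removing the offset gave whole reads within 0.1 of a read for 100% of values up to 1000 reads. The tables were normalised separately, and genes of low abundance had been left out of them before deposit (the highest CPM of every listed gene was at least 0.502).

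Values were turned back into normalised counts and tested as log2(value + 1) with limma 3.58.1 in R 4.3.3 (trend and robust spread, statmod 1.5.0), with all groups of an experiment in one model. Genes needed a normalised count of at least 1 in 3 pup or 4 adult libraries, which left 21007 and 19857 genes, and 19031 for adult minus pup effects. P-values were adjusted by Benjamini-Hochberg over all genes tested, with a threshold of 0.05. The offset of 1 understates changes of low genes. The code was tested on simulated data. All 10 members are named, and of each related list at most the 3 called genes of smallest adjusted p in a comparison, and Nqo1 and Hmox1; 1 list is not reported here in full. Genes of similar pattern are those of highest Pearson r over the 16 adult libraries: 3 each for Nfe2l2 and Keap1 and 1 for each other member. The members and lists were chosen with earlier results of these data known. Alternatives were other scalings, limma-voom on recovered reads, thinned reads, other offsets and filters, only the groups compared, leaving out each library in turn and a block for replicate number.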

Additional observations from a re-analysis of the deposited data

Results flagged for a closer look

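One library stood far from its group among the 40 gene-by-group sets of 4 adult libraries checked: heterozygous library 1 had 2165.1 normalised counts of Bach1, with a gap to the next library of 0.917 of the group's range, above the 95% limit of Dixon's test. By chance alone such a test marks some of 40 sets, so 1 is no pattern.

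The effect of a genotype differed between adults and pups in 13 cases, all with adjusted p under the threshold. The test was of the difference itself, over its standard error from the 2 separate limma fits. For L30F homozygosity the adult minus pup difference in log2 fold change was -2.29 for Nfe2l2, -2.09 for Nfe2l3, -2.82 for Maff, -1.26 for Mafg, -1.09 for Mafk and -0.48 for Cul3. For KEAP1 deficiency it was -1.33 for Nfe2l2, -0.96 for Nfe2l1, -1.36 for Nfe2l3, -3.11 for Maff, -1.23 for Mafg, -1.15 for Mafk and -0.77 for Cul3. Age, Cre driver and tamoxifen cannot be told apart in these differences.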

How the results depend on the processing

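Of 120 tests of the 10 genes, 58 were called, and 46 of these were called in every alternative and in every fit without a library. The tests share libraries, so they are not independent, and the count is to be read against the shares over all genes. Those ran from 1.76% higher and 2.4% lower between the mutant pups to 26.3% and 23.2% in KEAP1-deficient pups against wild type. Over all 2880 recomputed member results, 2767 stayed on their side of the threshold, 74 lost the call and 38 gained it with the same sign. The sign turned in 76, of which 75 were called in neither fit; the other was Bach1 in the adult minus pup effect of KEAP1 deficiency, at 0.42 under total scaling. Called members between the mutant pups went from 1 to 0 with only the groups compared, and from 0 to 3 without single libraries. In adult heterozygotes they went from 2 to 1 with only the groups compared, and from 1 to 2 without single libraries; in adult homozygotes, from 1 to 3. Homozygotes against heterozygotes had 1 under total scaling, limma-voom and only the groups compared, where 2 were called. For the deviation from the midpoint 0 were called under total scaling and limma-voom, and 0 to 2 without single libraries. The cause of these changes was not tested.

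Replicate numbers did not pair the libraries: same-numbered libraries correlated by -0.086 to 0.215 in pups and -0.181 to 0.169 in adults. With a replicate block 0 members were called between the mutant pups and 2 in the deviation from the midpoint, Cul3 and Nfe2l2. The block ended the calls of Bach2 in homozygous pups (adjusted p = 0.066), Keap1 between the mutant pups (0.059), Nfe2l3 (0.055) and Bach1 (0.054) in adult homozygotes and Bach1 between heterozygotes and KEAP1-deficient adults (0.059). It added Bach2 in adult homozygotes (-0.30, adjusted p = 0.038), Mafg in KEAP1-deficient adults (0.049) and Nfe2l2 between heterozygotes and KEAP1-deficient adults (0.045). Depth moved with genotype in adults, and with reads thinned to equal depth no call of a member was lost.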
